A study of Mus musculus with 34 samples.

Results

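The 10 genes described here encode the route by which activin reaches the nucleus: the receptors Acvr1b, Acvr2a and Acvr2b, the transducers Smad2, Smad3 and Smad4, the nuclear factors Foxh1 and Skil, the ligand gene Inhba and the antagonist gene Fst. They were chosen by name, with earlier results of these data known, and are 10 of the 53655 genes in each deposited count table. All 10 passed the filter on low counts in every comparison. Mouse EpiSC, which are epiblast stem cells held in a primed pluripotent state like that of the early embryo, gave 17 RNA libraries, and definitive endoderm (DE) differentiated from them in culture gave another 17, 34 in all. The cells belong to 18 lines of 7 inbred strains, and 16 lines have a library of each cell type. C57BL/6J gave 5 libraries of each cell type, and WSB/EiJ, NZO/HiLtJ and NOD/ShiLtJ gave 2 of each. PWK/PhJ gave 3 of EpiSC and 4 of DE, CAST/EiJ gave 2 of EpiSC and 1 of DE, and DBA/2J gave 1 of each. The strain 129S1/SvImJ was not analysed here.

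Both cell types were cultured with added activin A protein. EpiSC grew on irradiated mouse embryonic fibroblasts with FGF at 12.5 ng/mL, activin A at 20 ng/mL and a tankyrase inhibitor. DE was made in 40 h: 16 h of activin A at 40 ng/mL with the GSK3 inhibitor CHIR at 3 uM, then 24 h of activin A at 100 ng/mL with LDN-193189, an inhibitor of BMP receptors, at 100 nM. Cells with CXCR4 on their surface were then kept with magnetic beads. The EpiSC libraries used a stranded polyA kit and the DE libraries a low-input kit that amplified cDNA from 2 ng of RNA over 12 cycles and is known not to keep the strand, so effects of kit, culture medium and cell type cannot be told apart.

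Activin binds a type II receptor, which recruits and phosphorylates a type I receptor, and that receptor phosphorylates SMAD2 and SMAD3. These join SMAD4 and enter the nucleus, where partners such as FOXH1 carry them to target genes and co-repressors such as SnoN, the product of Skil, hold them in check. Follistatin binds activin outside the cell and keeps it from its receptors. Nodal uses the same receptors and SMADs to pattern the embryo, and activin stands in for it in culture, where a low dose holds EpiSC in their primed state and a high dose drives them to endoderm.

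The labels were checked against marker genes. All 10 definitive endoderm markers were higher in DE than in EpiSC, among them Sox17 by 7.65 ± 0.38 (SE) on the log2 scale, and of 7 pluripotency markers 5 were lower and 2 higher. Of 14 fibroblast markers, included because EpiSC grow on such cells, 13 were lower in DE and 1, Pdgfra, was higher (2.20 ± 0.25, SE, log2). Their summed level ran from 88.5 to 4197 CPM (counts scaled to a library of 1000000) in EpiSC and from 66.7 to 1419 CPM in DE. Libraries held 25584647 to 33831684 counts in EpiSC, and in DE 13 libraries held 23772045 to 35086632 counts and 4 held 58134731 to 67722013. The 2 NOD/ShiLtJ DE libraries stood apart, with summed endoderm markers of 1881 CPM in line AC576 and 4374 CPM in line AC595. Of 8 extraembryonic endoderm markers, 5 were tested in DE against EpiSC and 1 of these was higher.

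Of the 10 members, 9 changed between the cell types, in both directions. Acvr2b, Smad2, Smad4 and Foxh1 rose in DE, while Acvr1b, Skil, Smad3, Fst and Inhba fell, and Acvr2a did not pass the test. These are 4 higher and 5 lower of 10, beside 37.3% of all 20907 genes tested called higher and 39.9% called lower, so the share called is near the background. The members' median log2 fold was -0.10 and that of all genes tested was -0.06. A call means an adjusted p under 0.05 in edgeR's quasi-likelihood test with strain as a term and Benjamini-Hochberg adjustment over all genes tested. In the fit of DE against EpiSC, p-values rest on the spread between libraries left after strain and cell type. The 16 lines with both cell types were not paired in it. In bulk RNA, fewer cells of a type and less RNA per cell cannot be told apart.

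**Figure D1:**
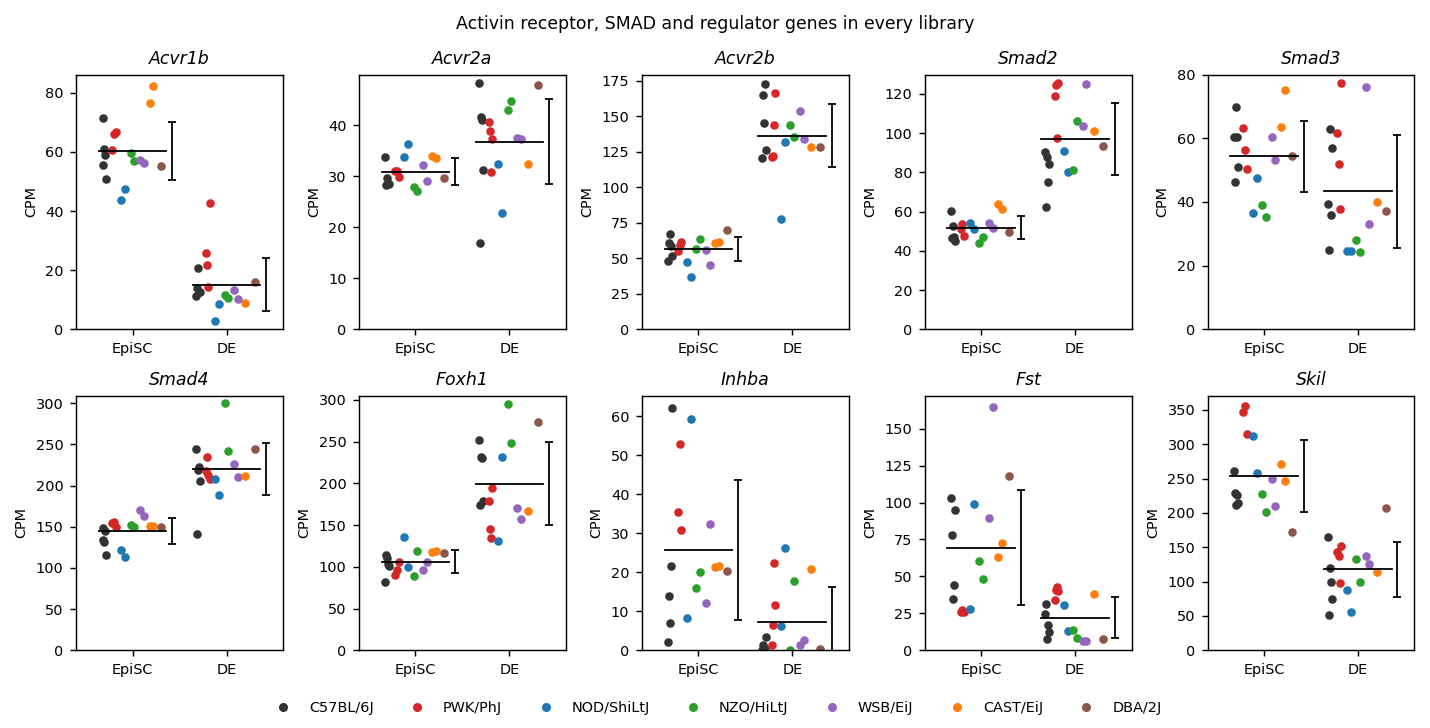
Level of each member in CPM (vertical axes, from 0) in the 17 EpiSC and 17 DE libraries; each point is a library coloured by strain, the line is the mean and the bar 1 SD. The EpiSC and DE points of Acvr1b and of Acvr2b do not overlap, and Inhba and Fst spread widest within a cell type relative to their means.

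The receptor genes went 3 ways. Acvr1b encodes ALK4, the type I receptor of activin and Nodal, whose level ran from 43.6 to 82.2 CPM in EpiSC with a median of 59.1 and a mean of 60.4 ± 9.89 (SD, n = 17). In DE it ran from 2.83 to 42.8 CPM with a median of 12.8 and a mean of 15.1 ± 8.97 (SD, n = 17). Every DE library lay below every EpiSC library, and all 16 lines with both cell types were lower in DE. The fall was -2.19 ± 0.17 (SE) on the log2 scale, with an adjusted p of 2.47e-13 in edgeR. Acvr2b, a type II receptor with high affinity for activin, went the other way. Its level ran from 37.0 to 69.7 CPM in EpiSC (median 58.7, mean 56.4 ± 8.34, SD, n = 17) and from 77.9 to 172.4 CPM in DE (median 133.8, mean 136.1 ± 22.2, SD, n = 17). Again the cell types did not overlap and all 16 lines moved the same way. The rise was 1.24 ± 0.08 (SE) on the log2 scale, with an adjusted p of 1.65e-15 in edgeR.

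Acvr2a, the other type II receptor, had a wider range in DE than in EpiSC. It ran from 27.2 to 36.4 CPM in EpiSC (median 30.0) and from 17.01 to 48.4 CPM in DE (median 37.6), higher in DE in 12 of 16 lines. Of 17 DE libraries, 11 lay above every EpiSC library and 2 below every one. Its log2 fold was 0.21 ± 0.10 (SE), with an adjusted p of 0.0591 in edgeR. The test was passed without line 2 of C57BL/6J (0.22, adjusted p 0.0255), AC595 (0.27, 0.0109), AC576 (0.24, 0.0412) or AC699 (0.22, 0.0496), and without the strain term (0.21, 0.041). It was also passed without the NOD/ShiLtJ libraries (0.30, 0.00592) or the CAST/EiJ libraries (0.27, 0.029). Lines 2 and AC595 have the 2 lowest DE values of Acvr2a, at 17.01 and 22.8 CPM. Per length of exon, the level of Acvr2b was above that of Acvr2a in all 34 libraries, by a median ratio of 2.66 in EpiSC (1.47 to 3.39) and of 5.18 in DE (3.47 to 14.04). The top ratio of 14.04 belongs to C57BL/6J line 2, where Acvr2a was lowest.

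The 3 receptor genes have different genome addresses and similar promoter composition. On GRCm38, Acvr1b (ENSMUSG00000000532.11) spans chr15:101174067-101213684 on the plus strand, Acvr2a (ENSMUSG00000052155.5) spans chr2:48814109-48903269 on the plus strand, and Acvr2b (ENSMUSG00000061393.14) spans chr9:119402118-119434995 on the plus strand. The RefSeq promoter windows, from 250 bases before to 50 after the start on GRCm38.p6, were at hand for 5 of the 10 members, and those of the receptors are shown because one of these genes fell, one rose and one did not pass the test. They lie at chr15:101173822-101174121, chr2:48813859-48814158 and chr9:119401928-119402227, all on the plus strand and written 5′ to 3′. Capitals mark CAGAC or its reverse complement GTCTG, the letters that SMAD3 and SMAD4 are known to contact.
Acvr1b: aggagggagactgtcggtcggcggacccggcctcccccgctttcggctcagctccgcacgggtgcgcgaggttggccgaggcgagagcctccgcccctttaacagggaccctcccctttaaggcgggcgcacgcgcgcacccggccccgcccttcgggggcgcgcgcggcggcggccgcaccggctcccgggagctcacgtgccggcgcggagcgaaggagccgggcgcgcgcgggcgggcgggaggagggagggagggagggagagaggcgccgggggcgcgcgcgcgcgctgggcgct
Acvr2a: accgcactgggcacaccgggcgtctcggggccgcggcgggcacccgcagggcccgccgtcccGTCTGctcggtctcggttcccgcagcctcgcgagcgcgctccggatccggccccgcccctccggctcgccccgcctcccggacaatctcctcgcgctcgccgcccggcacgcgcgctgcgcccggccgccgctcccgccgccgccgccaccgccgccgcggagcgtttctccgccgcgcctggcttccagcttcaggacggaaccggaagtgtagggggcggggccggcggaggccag
Acvr2b: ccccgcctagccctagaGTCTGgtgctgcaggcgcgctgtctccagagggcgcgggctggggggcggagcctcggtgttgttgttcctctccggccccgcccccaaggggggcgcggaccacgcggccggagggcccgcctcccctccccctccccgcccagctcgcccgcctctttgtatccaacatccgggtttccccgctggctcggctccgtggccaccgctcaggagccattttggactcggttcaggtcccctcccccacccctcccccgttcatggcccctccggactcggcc
GC content was 79.7% in the Acvr1b window, 80.3% in that of Acvr2a and 73.3% in that of Acvr2b, beside a median of 52.7% over all promoters. CAGAC or GTCTG occurred once each in the windows of Acvr2a (starting at -188 from the start of transcription) and Acvr2b (-233), and these letters are not in the Acvr1b window. Of 32851 promoters of the same length, 49.6% hold them on either strand. GGCGCC, a palindrome that SMAD complexes also bind, occurs in the Acvr1b window 1 time and in 11.9% of all promoters. The longer TGTGGATT or its reverse complement AATCCACA, a form of the FOXH1 recognition sequence, is in none of the 5 member windows and in 0.855% of all promoters.

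The SMAD genes shifted their balance. Smad2 and Smad3 encode the receptor-regulated SMADs that activin receptors phosphorylate, and Smad4 encodes the common partner. Smad2 ran from 43.7 to 64.1 CPM in EpiSC (median 51.3) and from 62.4 to 125.7 CPM in DE (median 93.4), and was higher in DE in all 16 lines. The rise was 0.86 ± 0.07 (SE) on the log2 scale, with an adjusted p of 1.79e-12 in edgeR. A single DE library, C57BL/6J line 2 at 62.4 CPM, lay inside the EpiSC range. Smad4 ran from 113.4 to 169.8 CPM in EpiSC (median 149.3) and from 141.6 to 299.8 CPM in DE (median 217.6). It rose by 0.57 ± 0.05 (SE) on the log2 scale, with an adjusted p of 3.08e-11 in edgeR. Of 16 lines, 15 were higher in DE, and the exception was again line 2, with 148.1 CPM in EpiSC and 141.6 CPM in DE.

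Smad3 fell, but not in every line. It ran from 35.4 to 75.1 CPM in EpiSC (median 54.5) and from 24.2 to 77.4 CPM in DE (median 37.7), and was lower in DE in 13 of 16 lines. The fall was -0.41 ± 0.12 (SE) on the log2 scale, with an adjusted p of 0.00252 in edgeR. The 3 lines in which it was higher in DE were 5-1 of C57BL/6J (51.1 to 56.8 CPM), AC705 of PWK/PhJ (50.5 to 77.4 CPM) and AC627 of WSB/EiJ (60.5 to 76.1 CPM). With line 4 of C57BL/6J (69.9 to 62.9 CPM) they are the 4 deepest DE libraries, whose Smad3 levels were 56.8 to 77.4 CPM (median 69.5), against 24.2 to 61.8 CPM (median 36.1) in the other 13. With these 4 as the DE libraries, Smad3 was higher in DE by 0.26 on the log2 scale (adjusted p 0.0356), and without them it was lower by -0.63 (adjusted p 6.72e-07). Acvr1b was lower in DE in both settings, by -1.51 with the 4 alone and by -2.33 without them. Within C57BL/6J fitted alone, the Smad3 difference was -0.40 with an adjusted p of 0.118. The part of sequencing depth in the Smad3 result was not tested further.

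**Figure D2:**
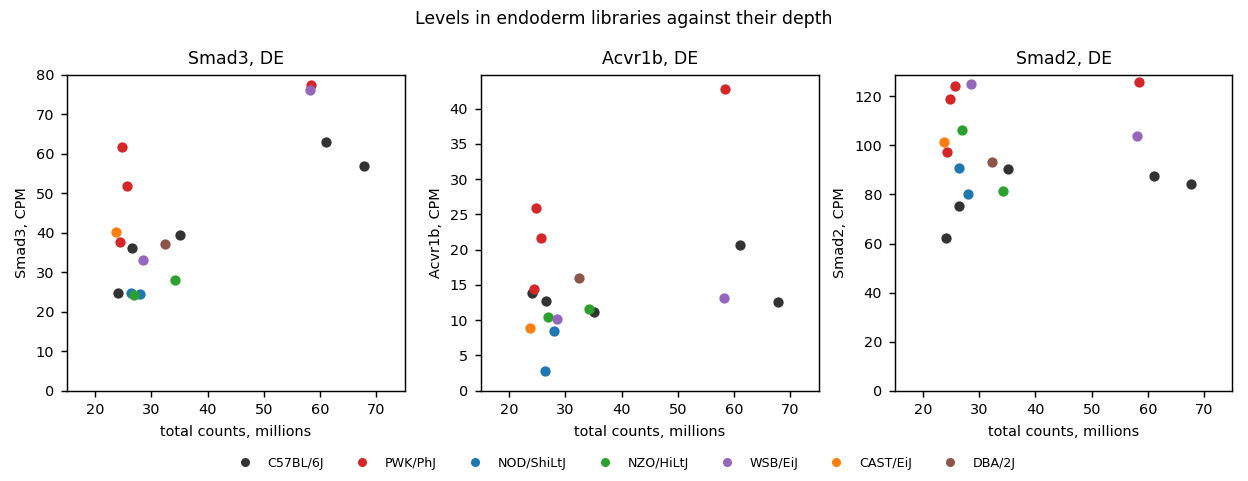
Level of Smad3, Acvr1b and Smad2 in CPM (vertical axes, from 0) against the library's total count (horizontal axes) for the 17 DE libraries, coloured by strain. The 4 libraries at 58134731 to 67722013 counts hold Smad3 at 56.8 to 77.4 CPM, whereas their Smad2 levels of 84.2 to 125.7 CPM overlap the 62.4 to 124.9 CPM of the other 13.

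Per length of exon, the level of Smad3 was above that of Smad2 in all 17 EpiSC libraries, by a median ratio of 1.67 (1.07 to 2.10). In DE the median ratio was 0.632 (0.361 to 1.16), and Smad3 was above Smad2 in 3 of 17 libraries. These 3 were lines 4 and 5-1 of C57BL/6J and AC627 of WSB/EiJ, all among the 4 deepest DE libraries. In the remaining deep library, AC705 of PWK/PhJ, Smad3 was at 13.96 and Smad2 at 14.32 CPM per kb. The part of sequencing depth in this ratio was not tested. The ratio also depends on the exon union lengths, 5542 nt for Smad3 and 8781 nt for Smad2. In CPM, Smad3 was not above Smad2 in every EpiSC library: NZO/HiLtJ line AC671 held 35.4 CPM of Smad3 and 46.9 CPM of Smad2. Smad4 was the most abundant SMAD of the 3 per length in every library, with a median ratio to Smad2 of 7.13 in EpiSC (5.25 to 8.23) and 5.40 in DE (3.92 to 8.72). The ratios describe single libraries and carry no test. On GRCm38, Smad3 (ENSMUSG00000032402.12) spans chr9:63646767-63757994 on the minus strand, Smad2 (ENSMUSG00000024563.16) spans chr18:76241580-76310963 on the plus strand and Smad4 (ENSMUSG00000024515.13) spans chr18:73639009-73703780 on the minus strand.

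Foxh1 and Skil, which act on the SMADs in the nucleus, moved apart. Foxh1 encodes the forkhead factor that binds SMAD2 and SMAD4 at Nodal targets. It ran from 82.2 to 136.3 CPM in EpiSC (median 105.4) and from 130.6 to 294.5 CPM in DE (median 178.5), a rise of 0.87 ± 0.09 (SE) on the log2 scale with an adjusted p of 1.89e-10 in edgeR. Of 16 lines, 15 were higher in DE, and the exception was NOD/ShiLtJ line AC576, with 136.3 CPM in EpiSC and 130.6 CPM in DE. AC576 is also the DE library with the lowest endoderm marker sum. Skil ran from 172.8 to 355.5 CPM in EpiSC (median 246.9) and from 51.8 to 207.3 CPM in DE (median 119.9), a fall of -1.18 ± 0.13 (SE) with an adjusted p of 2.46e-09 in edgeR. It was lower in DE in 15 of 16 lines. In DBA/2J line 55 it stood at 172.8 CPM in EpiSC and 207.3 CPM in DE, the lowest EpiSC and the highest DE value of the gene. Per length of exon Foxh1 was the most abundant of the 10 genes by the mean in both cell types, at 77.7 CPM per kb in EpiSC and 146.3 in DE. On GRCm38 Foxh1 (ENSMUSG00000033837.5) spans chr15:76668225-76669948 on the minus strand and Skil (ENSMUSG00000027660.16) spans chr3:31095058-31122577 on the plus strand.

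**Figure D3:**
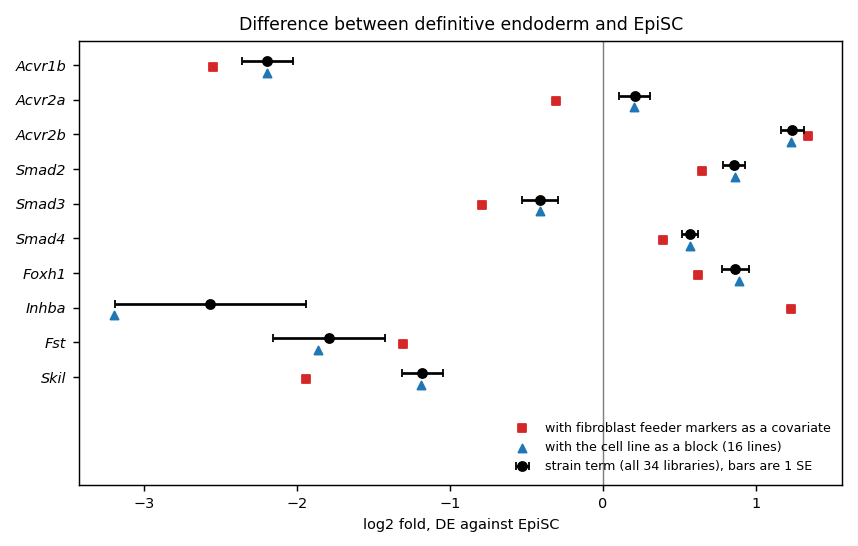
Difference between DE and EpiSC for each member as a log2 fold (horizontal axis); black points with bars of 1 SE come from the fit with strain, red squares add the fibroblast markers as a covariate and blue triangles use the cell line as a block. The Inhba square lies at 1.23, on the other side of 0 from its point at -2.57, and the Acvr2a square lies at -0.30.

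Inhba encodes the subunit of which activin A is a dimer, and its level differed more between lines than that of any other member relative to its mean. In EpiSC it ran from 2.05 to 62.2 CPM, with a median of 21.3 and a mean of 25.8 ± 17.9 (SD, n = 17). In DE it ran from 0 to 26.4 CPM, with a median of 2.66 and a mean of 7.25 ± 8.98 (SD, n = 17). The library at 0, NZO/HiLtJ line AC653, allows up to 0.0877 CPM, the level of 3 counts, and covers counting error only. All 16 lines were lower in DE, and 8 DE libraries lay below every EpiSC library. The fall was -2.57 ± 0.62 (SE) on the log2 scale, with an adjusted p of 0.000507 in edgeR. On GRCm38, Inhba (ENSMUSG00000041324.14) spans chr13:16011851-16031621 on the plus strand.

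The fibroblast markers moved with Inhba. In EpiSC the library with the lowest Inhba, C57BL/6J line 1 at 2.05 CPM, also had the lowest marker sum, 88.5 CPM. The library with the highest marker sum, NOD/ShiLtJ line AC595 at 4197 CPM, held 59.3 CPM of Inhba, second to line 5-1 of C57BL/6J at 62.2 CPM. Among 9445 genes, those whose log2 CPM was most like that of Inhba over the 17 EpiSC libraries were Thy1 (Pearson r 0.985), Fbln2 (0.978) and Pdgfrb (0.977), and Thy1 and Pdgfrb belong to the fibroblast list. Without the 2 libraries farthest from the median of the gene set beside Inhba, r was 0.964 for Thy1, 0.949 for Fbln2 and 0.943 for Pdgfrb. In DE the nearest genes, of 9033, were Bgn (0.904), Timp1 (0.896) and Anxa1 (0.878). These correlations describe libraries that share strains and depth, and carry no p. With the mean log2 level of the 14 markers as a covariate, chosen after seeing the data, the Inhba difference between cell types was 1.23 with an adjusted p of 0.118. The covariate itself differs between the cell types, and Thy1, its largest faller, ran from 0 to 2.50 CPM in DE. Other members kept their sign under it except Acvr2a, which went to -0.30 (adjusted p 0.0957), and Acvr1b stood at -2.55 and Skil at -1.94.

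**Figure D4:**
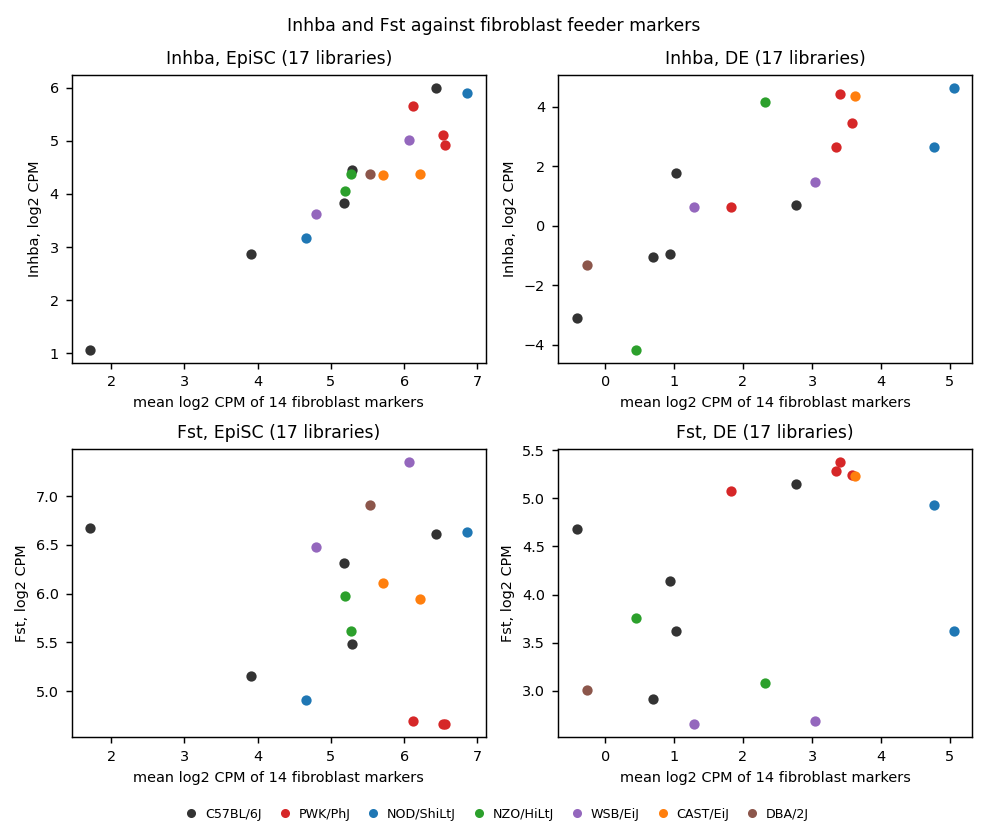
Log2 CPM of Inhba (top) and Fst (bottom) against the mean log2 CPM of 14 fibroblast markers, in EpiSC (left) and DE (right); each point is 1 of 17 libraries, coloured by strain. Inhba climbs along the markers in both cell types, whereas the PWK/PhJ EpiSC libraries hold the lowest Fst values at high marker levels.

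The window around the Inhba start was the sole one of the 5 member windows with a GC content under the median of all promoters, 47.7% against 52.7%. It is shown to set beside those of the receptors, and lies at chr13:16011601-16011900 on the plus strand of GRCm38.p6 (RefSeq), 5′ to 3′. The letters CAGAC and GTCTG are not in this window, so it has no capitals.
Inhba: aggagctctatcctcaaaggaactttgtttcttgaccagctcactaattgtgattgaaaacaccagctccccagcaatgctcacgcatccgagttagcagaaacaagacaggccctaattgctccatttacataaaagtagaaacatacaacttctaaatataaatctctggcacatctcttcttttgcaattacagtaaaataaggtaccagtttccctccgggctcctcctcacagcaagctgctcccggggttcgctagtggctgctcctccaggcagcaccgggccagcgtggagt

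Fst encodes follistatin, which binds activin and blocks it. It was the 1 member that edgeR called in the test of a strain effect differing between cell types, beside 10.7% of all genes. Over all libraries it ran from 26.0 to 164.4 CPM in EpiSC (median 63.4) and from 6.05 to 43.0 CPM in DE (median 17.1). The fall was -1.79 ± 0.36 (SE) on the log2 scale with an adjusted p of 6.40e-05 in edgeR, and 12 of 16 lines were lower in DE. The 4 lines that were higher in DE were the 3 PWK/PhJ lines with both cell types and NOD/ShiLtJ line AC576. On GRCm38, Fst (ENSMUSG00000021765.9) spans chr13:114452290-114458951 on the minus strand.

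In PWK/PhJ, Fst was at 26.2 CPM in EpiSC and 33.8 CPM in DE of line AC695, 27.2 and 40.8 CPM in AC698, and 26.0 and 40.3 CPM in AC705, and at 43.0 CPM in DE of AC699. The DE values lay above the EpiSC values without overlap, but the log2 fold of 0.56 ± 0.44 (SE) had an adjusted p of 0.297 in edgeR. WSB/EiJ was at the other end: 89.7 CPM in EpiSC and 6.05 CPM in DE of line AC627, and 164.4 and 6.28 CPM in AC635. The fall there was -4.36 ± 0.66 (SE) on the log2 scale, with an adjusted p of 1.04e-05.

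C57BL/6J held Fst at 103.2, 77.7, 35.0, 44.1 and 95.1 CPM in EpiSC of lines 1, 2, 4, 44 and 5-1, and at 24.5, 31.2, 7.44, 17.1 and 12.3 CPM in their DE. All 5 lines were lower in DE, by -1.93 ± 0.38 (SE) on the log2 scale with an adjusted p of 9.14e-05. NZO/HiLtJ went from 60.6 to 14.01 CPM in line AC653 and from 48.1 to 8.26 CPM in AC671, a fall of -2.39 ± 0.61 (SE) with an adjusted p of 0.00268, or 0.0564 without AC671. The 2 NOD/ShiLtJ lines differed from each other: 28.0 to 30.8 CPM in AC576 and 98.9 to 12.9 CPM in AC595. Their joint fall of -1.65 ± 0.59 (SE; adjusted p 0.0271) was 0.018 without AC595 and -3.13 without AC576, and with the cell line as a block it was -1.52 with an adjusted p of 0.0606. Single lines of CAST/EiJ (63.4 to 38.0 CPM in WM078) and DBA/2J (118.2 to 7.88 CPM in 55) were lower in DE; CAST/EiJ line WM080 was at 72.5 CPM in EpiSC.

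Over the strains with 2 or more lines of each cell type, the strain effect on Fst differed between EpiSC and DE, with an adjusted p of 0.00179 in edgeR. It was the 1 member of 10 called in this test, beside 10.7% of all genes. The call held in every alternative run, and was weakest without line AC635, which leaves WSB/EiJ with 1 line of each cell type. Without the low-count filter the adjusted p in edgeR was 2.06e-35, far below the 0.00179 of the main fit. The cause was not tested, and the value is not read as stronger evidence. With the cell line as a replicate block the adjusted p of Fst was 0.011. Acvr1b was then called too (adjusted p 0.0425, against 0.0641 without the block). DESeq2 also called Acvr1b in this test (adjusted p 0.0175).

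**Figure D5:**
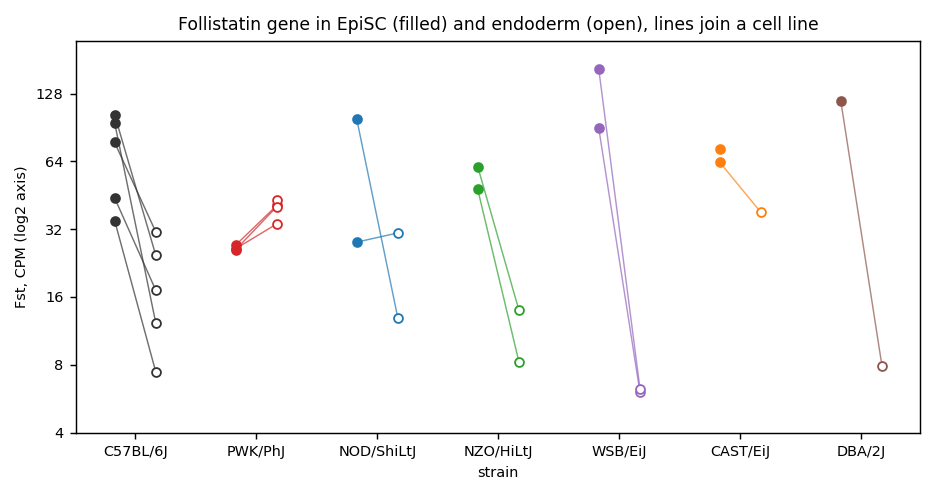
Level of Fst in CPM on a log2 axis (vertical) for each strain (horizontal), with EpiSC libraries filled, DE libraries open and lines joining the libraries of 1 cell line. The 3 joined PWK/PhJ lines slope up from 26.0 to 27.2 CPM in EpiSC to 33.8 to 40.8 CPM in DE, and the 2 WSB/EiJ lines slope down to 6.05 and 6.28 CPM.

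Strains were then compared within each cell type. The processing notes name no genome build but mm10, so a strain's expression and how well its reads align to the C57BL/6J genome cannot be told apart. In EpiSC, 4 of 10 members differed among the strains with 2 or more lines of each cell type, beside 40% of all genes: Skil (adjusted p 0.00265), Smad4 (0.0178), Smad3 (0.024) and Fst (0.0342), all by edgeR. CAST/EiJ and DBA/2J were not part of that test. DESeq2 called 6 members there, beside 8934 of 17868 genes, and these included Acvr1b (adjusted p 0.0211) and Acvr2a (0.00817). In the pairwise tests against C57BL/6J the firmest was Skil in PWK/PhJ. The 3 PWK/PhJ libraries stood at 347.0, 355.5 and 314.9 CPM, and the 5 C57BL/6J libraries at 260.4, 229.2, 211.1, 225.5 and 214.8 CPM. The groups did not overlap, and the difference of 0.50 ± 0.10 (SE) on the log2 scale (adjusted p 0.00137) was called in every alternative run. By mean, Skil was ordered PWK/PhJ, NOD/ShiLtJ (312.5 and 258.1 CPM), CAST/EiJ (270.6 and 246.9 CPM), WSB/EiJ, C57BL/6J, NZO/HiLtJ and DBA/2J, and from NOD/ShiLtJ to NZO/HiLtJ neighbouring strains overlapped.

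PWK/PhJ EpiSC also had less Fst than C57BL/6J, by -1.49 ± 0.44 (SE) on the log2 scale with an adjusted p of 0.0232 in edgeR. That call was lost without line AC695 (adjusted p 0.0751), AC698 (0.0698) or AC705 (0.0752), or without the low-count filter (0.0625), although all 3 values lay below all 5 of C57BL/6J. Skil and Fst are 2 of 10 members, beside 29.8% of all genes for this contrast. CAST/EiJ EpiSC had more Acvr1b, 76.4 and 82.2 CPM against 50.8 to 71.6 CPM in C57BL/6J. The difference was 0.35 ± 0.10 (SE) with an adjusted p of 0.0184 in edgeR, the 1 member called beside 31.6% of all genes, and it missed the threshold without WM078 (0.057) or WM080 (0.139). Summed endoderm markers were 1519 to 1708 CPM in the CAST/EiJ EpiSC libraries and 402 to 686 CPM in the others, and their part in the Acvr1b difference was not tested.

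NZO/HiLtJ EpiSC had less Smad3, 39.1 and 35.4 CPM against 46.3 to 69.9 CPM in C57BL/6J, a difference of -0.62 ± 0.15 (SE) with an adjusted p of 0.0313. This was 1 member of 10 beside 5.52% of all genes, and the call was lost without line 1 (adjusted p 0.051), 4 (0.0511) or 44 (0.0577) of C57BL/6J, or AC653 (0.181) or AC671 (0.303). NOD/ShiLtJ EpiSC had less Acvr1b (-0.36 ± 0.11, SE, adjusted p 0.0399) and more Skil (0.35 ± 0.11, SE, adjusted p 0.0472), 2 members beside 12.9% of all genes. Without AC576 these were -0.33 (adjusted p 0.176) and 0.17 (0.411), and without AC595 Acvr1b had an adjusted p of 0.11. The Acvr1b call was also lost without 4, 44, AC635, AC653, AC671, AC695, AC698 or AC705 (adjusted p 0.0505 to 0.0637) with the fibroblast covariate (0.0711) and without the low-count filter (0.0643). The Skil call was lost without 2, 4, 44, 5-1, AC653, AC671, AC695, AC698, AC705, WM078 or WM080 (0.052 to 0.0841). No member was called in WSB/EiJ EpiSC by edgeR, beside 7.41% of all genes, with 1 member at an unadjusted p under 0.05 and 1 called by DESeq2. Among the strains of EpiSC as a whole, Smad3 lost its call without AC653 (adjusted p 0.064) or AC671 (0.111), and Smad4 without AC595 (0.0551) or AC627 (0.0629). Fst lost it without any of AC635, AC653, AC671, AC695, AC698 or AC705, at adjusted p from 0.0523 to 0.0981, and without the low-count filter (0.0968). Skil kept its call throughout. Mean Smad4 in EpiSC was highest in WSB/EiJ (169.8 and 162.9 CPM) and lowest in NOD/ShiLtJ (121.4 and 113.4 CPM), and the other strains lay between.

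In DE, Fst (adjusted p 0.0123) and Acvr1b (0.0166) differed among the strains with 2 or more lines of each cell type, 2 of 10 members beside 22.3% of all genes. Acvr1b was highest in PWK/PhJ, at 25.9, 21.6, 14.4 and 42.8 CPM in lines AC695, AC698, AC699 and AC705. It was lowest in NOD/ShiLtJ, at 2.83 CPM in AC576 and 8.40 CPM in AC595, both below the 11.1 to 20.7 CPM of the 5 C57BL/6J libraries. NOD/ShiLtJ differed from C57BL/6J by -1.45 ± 0.44 (SE) on the log2 scale, with an adjusted p of 0.0464 in edgeR, the 1 member called beside 11.4% of all genes. Without AC576 the difference was -0.90 (adjusted p 0.482), and the call was also lost without any C57BL/6J line, AC627, AC635, AC653, AC671, AC695 or AC698 (0.0501 to 0.0852). Without the 4 deepest DE libraries the adjusted p was 0.112, and with the fibroblast covariate the difference was -1.53 (adjusted p 0.294). Summed fibroblast markers in the 2 NOD/ShiLtJ DE libraries were 1419 and 1299 CPM. Of 14 such markers 12 were higher than in C57BL/6J DE, while 7 of 10 endoderm markers were lower. The part of the fibroblast markers in the Acvr1b difference was examined by that covariate alone, and the part of the endoderm markers was not tested. Among strains, Acvr1b missed the threshold without AC576 (0.0527) or without the 4 deepest DE libraries (0.109), and Fst without AC627 (0.0536).

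No member was called in DE of PWK/PhJ, NZO/HiLtJ or WSB/EiJ against C57BL/6J by edgeR, beside 17.1%, 1.41% and 2.28% of all genes. At an unadjusted p under 0.05 there were 5 members in PWK/PhJ, 2 in NZO/HiLtJ and 2 in WSB/EiJ, and DESeq2 called 2, 0 and 1. In PWK/PhJ the 5 were Smad2 (0.44 ± 0.15, SE, adjusted p 0.0578), Foxh1 (-0.49 ± 0.18, SE, 0.072), Fst (0.97 ± 0.37, SE, 0.0862), Inhba (3.07 ± 1.16, SE, 0.0877) and Acvr1b (0.78 ± 0.32, SE, 0.114), and DESeq2 called Smad2 and Foxh1. These are values, not calls.

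Tested strain by strain, the change from EpiSC to DE was called for 8 members in C57BL/6J beside 65.1% of all genes, 6 in PWK/PhJ beside 54.8%, and 7 each in NOD/ShiLtJ beside 41.6%, NZO/HiLtJ beside 41.3% and WSB/EiJ beside 42.5%. Acvr1b and Skil fell, and Acvr2b, Smad2 and Smad4 rose, in each of these 5 strains. Foxh1 rose in 4 of them, and in NOD/ShiLtJ its difference was 0.48 ± 0.23 (SE, adjusted p 0.0933). Inhba fell in C57BL/6J by -4.20 ± 1.10 (SE, adjusted p 0.00205), a value that became 0.51 (adjusted p 0.695) with the fibroblast covariate. Smad3 was called in NOD/ShiLtJ alone among the 5, at -0.90 ± 0.33 (SE, adjusted p 0.0335).

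The calls in strains with 2 lines often rested on both. In NOD/ShiLtJ, Smad3 (adjusted p 0.0897 and 0.331) and Smad2 (0.188 and 0.0698) lost theirs without AC576 or AC595, Smad4 without AC576 (0.0748) and Acvr2b without AC595 (0.60, adjusted p 0.119). In NZO/HiLtJ, Skil lost its call without AC653 (0.104) or AC671 (0.137). In WSB/EiJ, Foxh1 (0.222 and 0.0565), Skil (0.251 and 0.191) and Smad4 (0.25 and 0.146) lost theirs without AC627 or AC635, and with the cell line as a block Foxh1 stood at an adjusted p of 0.0501 and Smad4 at 0.0894. In WSB/EiJ, leaving out a line of another strain also ended the call of Skil (without 44, AC653, AC671, AC695, AC698, WM078 or WM080, adjusted p 0.0528 to 0.0607) and of Smad4 (without 4 or AC705, 0.052 and 0.0508). The direction was the same in each of these cases. With the fibroblast covariate Smad4 was no longer called in PWK/PhJ (0.25, adjusted p 0.157) or WSB/EiJ (0.17, adjusted p 0.451).

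The rest of the pathway was counted from 6 lists of named genes, to be read beside the 37.3% of all genes called higher and 39.9% called lower. Genes are named here by the size of their change among those whose log2 CPM averaged 3 or more. Of 11 other receptor genes of the TGF-beta family 10 were tested, 8 fell and 1 rose in DE. The riser was the co-receptor Tgfbr3 (2.29 ± 0.23, SE, log2), and the fallers included the BMP receptors Bmpr2 (-1.64 ± 0.06) and Acvr1 (-1.20 ± 0.08) and, below that expression level and named after their values were seen, Eng (-3.74 ± 0.40) and Bmpr1b (-2.04 ± 0.25). The list's median was -1.10, beside -2.19 for Acvr1b and 1.24 for Acvr2b. Among 5 other SMADs, 2 rose and 3 fell: Smad1, which carries BMP signals, by 3.48 ± 0.12, and the inhibitory Smad6 by 2.98 ± 0.12, while the inhibitory Smad7 fell by 2.78 on the log2 scale. The median was -1.12.

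Of 12 other ligand genes, 9 were tested, 3 rose and 3 fell, with a median of -0.19; Nodal rose by 1.37 ± 0.13 (SE) and Tgfb2 by 0.92 ± 0.25. The 3 that fell were below that expression level and are named after their values were seen: Inhbe (-3.35 ± 0.61), Tgfb3 (-2.16 ± 0.55) and Gdf11 (-2.08 ± 0.22). Of 10 co-receptors and antagonists, 6 rose and 2 fell, with a median of 2.35. The risers were led by the Nodal antagonists Cer1 (6.54 ± 0.46, SE) and Lefty1 (5.49 ± 0.29) and the Nodal co-receptor Cfc1 (5.34 ± 0.42). The 2 that fell, named after their values were seen, were Tdgf1, also a Nodal co-receptor (-2.19 ± 0.345, SE), and Igsf1 (-0.665 ± 0.1445). Among 15 nuclear partners and turnover factors, 2 rose and 7 fell, with a median of -0.18, including the co-activator Ep300 (-2.20 ± 0.09, SE), the SMAD anchor Zfyve9 (-2.04 ± 0.13) and the co-repressor Ski (-1.95 ± 0.07), a close relative of Skil. Tgif2, below that level and likewise named after its value was seen, fell by 2.10 on the log2 scale. All 14 listed activin and Nodal targets changed, 12 up and 2 down with a median of 2.74, among them Gsc (5.90 ± 0.33). The lists overlap: Lefty1, Lefty2, Cer1, Nodal, Smad7 and Pmepa1 are targets that also stand in another of the lists. Cer1, Gsc, Eomes and Foxa2 are also among the endoderm markers. The median over all genes tested was -0.06.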

How the data were processed

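The authors deposited raw counts, whole numbers of reads for each gene, in 1 table for EpiSC and 1 for DE. STAR 2.4, HTSeq 0.6.1, DESeq2 (no version) and the genome build mm10 are named in the submitters' processing notes. As annotation release and strand setting were not given in the sources used here, reads of overlapping or antisense genes cannot be told apart, and may be counted differently in the stranded EpiSC libraries and the DE libraries.

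Libraries took their strain and line from the labels; for AC705 the line stands in the cell line label and not in the titles. A gene was kept where 3 or more libraries had a count of 10 or more, scaled by TMM and tested with edgeR 4.0.16 (R 4.3.3, quasi-likelihood, robust), fitting strain and cell type, strains within a cell type, or both with their interaction. The SE is the log2 fold divided by the root of F. CPM divides by a library's total, and CPM per kb also by the exon union of GENCODE M21. Likeness is Pearson's r of log2 CPM over genes with a mean of at least 3, and the 3 nearest genes were listed per member and cell type; from each list up to 3 changed genes of largest fold whose log2 CPM averaged 3 or more were named, except items that are not reported here. The fit was tested on simulated data. Alternatives were DESeq2 1.42.0, RLE scaling, no filter, the cell line as a block, each line left out, single strains, and 5 settings chosen after seeing the data. Lines pair the cell types by origin; deviations of the same line correlated at -0.052 to 0.291 (median 0.062, 14 lines, above 0.1 in 6). Counts come from amplified reads, which are not independent molecules. The members and gene lists were chosen with earlier results of these data known.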

Additional observations from a re-analysis of the deposited data

Results flagged for a closer look

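The strain effect on Fst differed between EpiSC and DE in a test of that difference (adjusted p 0.00179 in edgeR): Fst was higher in DE in all 3 PWK/PhJ lines with both cell types and lower in both WSB/EiJ lines and all 5 C57BL/6J lines.

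In C57BL/6J DE, Acvr1b stood at 20.7 CPM in line 4, far above the 11.1 to 13.8 CPM of the other 4 lines; this library is among the 4 deepest DE libraries. In C57BL/6J EpiSC, Acvr2a stood at 33.9 CPM in line 1 and at 28.4 to 29.6 CPM in the other 4; line 1 also has the lowest fibroblast marker sum. These are 2 of 30 groups examined for a value far from the rest, and chance marks about 1 group in 20.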

How the results depend on the processing

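Single genes were followed for all members in DE against EpiSC, and for called members alone in the other comparisons. Gained calls could therefore be counted in DE against EpiSC alone. Of 1419 values of single genes under alternatives, 1308 kept their direction and side of the threshold, 98 lost the call, 8 gained one and 5 turned sign. The 5 were Inhba (1.23), Inhba within C57BL/6J (0.51) and Acvr2a (-0.30) with the fibroblast covariate, Smad3 (0.26) with the 4 deepest DE libraries alone, and Fst within NOD/ShiLtJ (0.018) without AC595, which ran down to -3.13 without AC576. The cause was not tested.

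Counts of members called that moved by over 1.5 times, or to or from 0, were as follows. DESeq2 gave 5 for NOD/ShiLtJ, 1 for WSB/EiJ and 2 for CAST/EiJ in EpiSC, 5 among strains in DE, 2 for PWK/PhJ and 1 for WSB/EiJ in DE, and 2 in the test of strain by cell type. Without the low-count filter there were 1 for PWK/PhJ and 1 for NOD/ShiLtJ in EpiSC. In DE that run gave 6 among strains, 2 for PWK/PhJ, 3 for NOD/ShiLtJ, 1 for NZO/HiLtJ and 1 for WSB/EiJ. It gave 4 for strain by cell type. It is also the run whose adjusted p for Fst in that test lay far below that of the main fit, and the cause was not tested. The fibroblast covariate gave 2 for CAST/EiJ in EpiSC, 1 for PWK/PhJ in DE and 0 for NOD/ShiLtJ in DE. RLE scaling gave 1 for PWK/PhJ in DE. Among smaller moves, RLE scaling also called Acvr2a in NOD/ShiLtJ EpiSC (adjusted p 0.0469 in edgeR), and DESeq2 gave 6 among strains in EpiSC. Without the 4 deepest DE libraries there were 1 among strains and 0 for NOD/ShiLtJ in DE. The cell line as a replicate block gave 2 for strain by cell type and moved no other count of members by over 1.5 times. Among the calls named it ended those of Fst in NOD/ShiLtJ and of Foxh1 and Smad4 in WSB/EiJ, and no other.

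Leaving out each line gave 9 to 10 members between the cell types, 2 to 6 among strains in EpiSC, 1 to 4 among strains in DE and 1 to 3 for strain by cell type. In EpiSC against C57BL/6J it gave 1 to 2 for PWK/PhJ, 0 to 4 for NOD/ShiLtJ, 0 to 1 for NZO/HiLtJ, 0 to 1 for WSB/EiJ and 0 to 2 for CAST/EiJ. In DE it gave 0 to 2 for PWK/PhJ, 0 to 2 for NOD/ShiLtJ, 0 to 0 for NZO/HiLtJ and 0 to 1 for WSB/EiJ. Within strains, DE against EpiSC gave 8 to 9 in C57BL/6J, 6 to 6 in PWK/PhJ, 3 to 8 in NOD/ShiLtJ, 6 to 8 in NZO/HiLtJ and 4 to 7 in WSB/EiJ. Where a strain is left with 1 line, that line is assumed to vary like the others. Inhba had 0 counts in 1 DE library, so its level there is known as an upper limit alone.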

Other observations

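Within DE, 4 of the members had their lowest value in the same library, C57BL/6J line 2: Acvr2a (17.01 CPM), Smad2 (62.4 CPM), Smad4 (141.6 CPM) and Skil (51.8 CPM). NOD/ShiLtJ line AC576 held the lowest DE value of 3 others, Acvr1b (2.83 CPM), Acvr2b (77.9 CPM) and Foxh1 (130.6 CPM). Over the 17 DE libraries, log2 CPM of Acvr2a correlated with that of Smad4 (Pearson r 0.874, 0.809 without line 2) and of Skil (0.859, 0.825 without line 2). In EpiSC the genes nearest to Smad2 were Fzd6 (0.921), the type I TGF-beta receptor gene Tgfbr1 (0.916) and Etl4 (0.907). For Fst they were Fam120b (0.859), Dhx40 (0.832) and Rtfdc1 (0.824) in EpiSC, and Fitm2 (0.85), Cdc42ep5 (0.844) and Ptov1 (0.828) in DE. The points share strains and depth, and the values carry no p.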
